A study of Mus musculus with 3 samples.

Results

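The 10 genes described here encode cytokines of the interleukin-6 (IL-6) family, their receptors and 2 of their intracellular effectors: the ligands Il6, Il11, Lif and Clcf1, the receptor chains Il6st, Il6ra, Lifr and Osmr, the transcription factor Stat3 and the feedback inhibitor Socs3. They were taken by name from a table of 56833 genes, and all 10 were found in it. RNA was sequenced from mouse ankle synovium cells of the genotype Efhd1CreER; Ai9, in which a Cre recombinase expressed from Efhd1 switches on the red reporter tdTomato. All 3 groups carried this genotype, and all were reporter-positive cells sorted by flow cytometry, which the labels call telocytes, an interstitial cell type. The groups differed in the collagen-coated plate on which the cells were kept for 24 h, with a stiffness of 0.2 kPa in the soft group, 8 kPa in the intermediate group and 64 kPa in the stiff group. By its title, the series addresses the effect of matrix stiffness on the conversion of telocytes to fibroblasts. The age and number of the animals and the induction of the recombinase are not given in the sources used here.

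Each level had 1 library, so the differences below have no replicate check, no p-value can be given, and differences between cultures cannot be told apart from those between stiffness levels. Reads counted in genes, recovered from the deposited values, numbered 25487064 for soft, 28081600 for intermediate and 26474862 for stiff. Of the 4 telocyte markers, Efhd1 itself had 10, 5 and 3 reads, in the order soft, intermediate and stiff used throughout, Kit had 41, 41 and 44, Cd34 had 229, 257 and 310, and Pdgfra, which is also a fibroblast marker, had 5739, 6681 and 4991. All 7 fibroblast markers were well covered, with a lowest value of 607 normalized counts (Lum, intermediate). All 12 macrophage markers were present, and their summed level was 31537, 38927 and 67921 normalized counts. Of the T cell markers, Cd3d, Cd3e and Cd3g had no read and Cd2 had at most 2, but Trac had 7, 19 and 29 reads. Of the neutrophil markers, S100a9, Ly6g and Retnlg had no read and Csf3r had at most 2, but S100a8 had 210, 220 and 197. Among the endothelial markers Kdr had 21, 27 and 45 reads, Pecam1 had 12, 13 and 4, Cdh5 had 5, 3 and 0, and the other 2 had at most 6. Mcpt4 was the only mast cell marker of 5 with a read, 2 in the intermediate library. In a bulk sample, fewer cells of a type and less RNA per cell cannot be told apart.

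Cytokines of the IL-6 family signal through a shared receptor chain, gp130, the product of Il6st. IL-6 and IL-11 first bind their own alpha receptors and then join gp130, whereas LIF signals through gp130 paired with the LIF receptor, and oncostatin M through gp130 paired with the oncostatin M receptor. The receptors activate Janus kinases, which phosphorylate STAT3, and STAT3 induces Socs3, whose product binds gp130 and shuts the signal down. In the joint, synovial fibroblasts are a known source of IL-6 and LIF, and blockade of IL-6 signalling is a treatment of inflammatory arthritis.

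The upstream sequences of 4 members are shown because Il6, Il11 and Lif shared a pattern over the 3 libraries, described next, and because Socs3 is the textbook STAT3 target of the set. Each run is the 250 bases before the RefSeq transcription start, 5′ to 3′ on the strand of the gene, from the RefSeq table for GRCm38.p6; each matched GRCm39 exactly and at a single place on its chromosome. In GRCm39 the windows are chr5:30217862-30218111 (plus strand), chr7:4781141-4781390 (minus strand), chr11:4207318-4207567 (plus strand) and chr11:117860193-117860442 (minus strand). Capitals mark matches to the motifs searched.
Il6: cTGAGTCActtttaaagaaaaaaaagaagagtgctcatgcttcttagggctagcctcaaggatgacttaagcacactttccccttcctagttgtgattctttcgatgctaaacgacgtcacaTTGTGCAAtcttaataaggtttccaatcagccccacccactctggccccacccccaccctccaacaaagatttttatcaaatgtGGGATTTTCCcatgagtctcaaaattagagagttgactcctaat
Il11: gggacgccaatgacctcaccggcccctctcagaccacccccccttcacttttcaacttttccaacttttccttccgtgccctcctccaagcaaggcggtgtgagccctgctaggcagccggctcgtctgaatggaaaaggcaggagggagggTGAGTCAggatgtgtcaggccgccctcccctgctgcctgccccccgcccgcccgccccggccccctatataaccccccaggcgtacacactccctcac
Lif: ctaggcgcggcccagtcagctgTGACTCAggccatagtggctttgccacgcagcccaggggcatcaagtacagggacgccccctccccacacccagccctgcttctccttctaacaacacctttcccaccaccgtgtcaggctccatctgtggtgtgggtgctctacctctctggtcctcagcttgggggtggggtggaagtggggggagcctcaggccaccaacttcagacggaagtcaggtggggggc
Socs3: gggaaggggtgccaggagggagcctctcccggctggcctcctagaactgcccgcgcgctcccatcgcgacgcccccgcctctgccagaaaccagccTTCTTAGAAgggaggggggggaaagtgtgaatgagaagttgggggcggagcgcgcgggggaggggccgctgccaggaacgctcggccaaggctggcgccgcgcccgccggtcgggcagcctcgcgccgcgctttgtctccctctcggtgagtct

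Motifs were searched on both strands in the 300 bases from 250 before to 50 after the start, and 9 of the 10 members had such a window. The AP-1 letters TGANTCA lay upstream of all 3 of Il6, Il11 and Lif, as TGAGTCA in Il6 and Il11 and TGACTCA in Lif. They were also found in the window of Osmr, past its start, and in 7.81% of 32851 RefSeq promoter windows of this length. The Il6 window alone among the members held the NF-kappaB motif (GGG, any 2 bases, then TTTCC), as GGGATTTTCC ending 35 bases before the start, and these occurred in 1.63% of windows. It also held the C/EBP letters TTGCNNAA, found in 10.8% of windows. The STAT letters TTCNNNGAA were in the window of Socs3, as TTCTTAGAA, and in 8.30% of windows, and the TEAD letters GGAATG were in that of Stat3 and in 14.7% of windows. No match to TGACGTCA, the cAMP response element, was found in the 9 members with a window, and 1.79% of all windows held one. Il11 and Lifr have 2 windows each in the table, and the windows not shown had no match. None of the matches overlapped another, and a match is a description of the letters and not of a bound site.

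Among the ligands, Il6, Il11 and Lif had their highest level in the intermediate library, and Clcf1 did not share this pattern. Il6, the founding cytokine of the family, maps in GRCm39 to chromosome 5, bases 30218112 to 30224979, plus strand, with 5 exons in its canonical transcript. It had 946 normalized counts at 0.2 kPa, 1109 at 8 kPa and 758 at 64 kPa, where a normalized count is the number of reads divided by a size factor of the library. The intermediate library was highest and the stiff library lowest. The log2 ratio, computed here with a pseudocount of 1, was 0.23 for intermediate to soft, with a 95% counting interval from 0.10 to 0.35. For stiff to intermediate it was -0.55, with an interval from -0.68 to -0.41. These intervals cover counting error only and not differences between cultures.

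Lif, the leukemia inhibitory factor, maps to chromosome 11, bases 4207557 to 4222514, plus strand (4 exons). It had 1714 normalized counts at 0.2 kPa, 2597 at 8 kPa and 1831 at 64 kPa, so that the intermediate library stood apart from 2 nearly equal ones. The log2 ratio of intermediate to soft was 0.60 (interval 0.51 to 0.69) and that of stiff to intermediate was -0.50 (interval -0.59 to -0.42). Between stiff and soft it was 0.09, with an interval from -0.002 to 0.19, and no difference was detectable at this depth.

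Il11, a cytokine of stromal cells known for its part in fibrosis, maps to chromosome 7, bases 4775372 to 4785858, minus strand (5 exons). It had 7369 normalized counts at 0.2 kPa, 8334 at 8 kPa and 6892 at 64 kPa. The pattern over the 3 libraries was that of Il6 with smaller differences: the log2 ratio was 0.18 for intermediate to soft (interval 0.13 to 0.22) and -0.27 for stiff to intermediate (interval -0.32 to -0.23). Clcf1, the cardiotrophin-like cytokine, maps to chromosome 19, bases 4264292 to 4273546, plus strand (3 exons). It had 1776, 1998 and 2005 normalized counts at the 3 levels. Its soft library was the low one, and the other 2 did not differ beyond counting error (log2 ratio 0.005, interval -0.08 to 0.09).

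**Figure D1:**
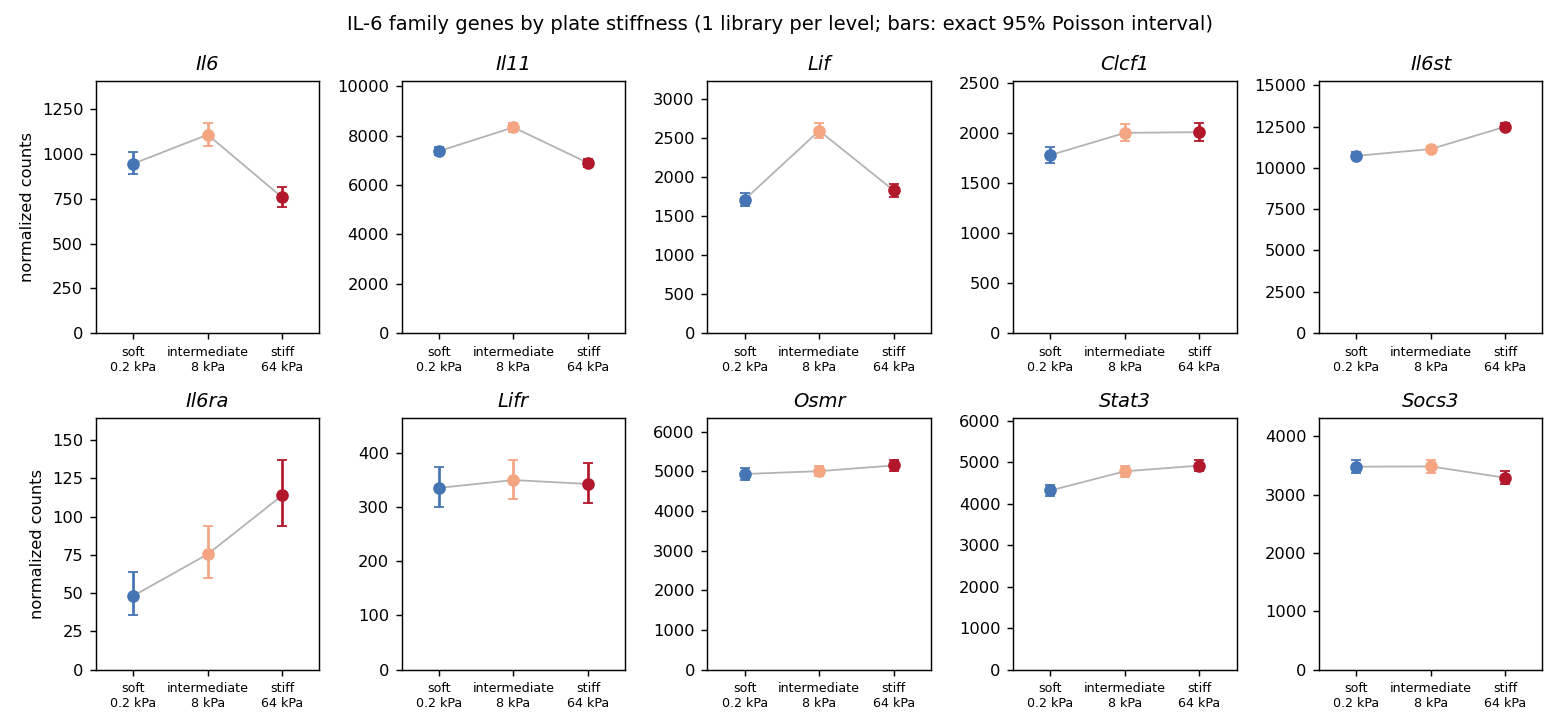
Normalized counts of the 10 IL-6 family genes (y axis, from 0, a scale per gene) in the soft, intermediate and stiff library (x axis), with exact 95% Poisson intervals as bars; 1 library per level. Il6, Il11 and Lif are highest at 8 kPa, Il6ra increases over both steps from 48.2 to 114, and Lifr and Osmr are nearly level.

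In 3 of the 10 members the intermediate library was above both others with counting intervals clear of 0, a pattern that 4.03% of the 11873 genes averaging at least 50 normalized counts also had. No member had the opposite pattern, against 2.80% of those genes. The count was 3 under each of 3 other scalings of the libraries. With a trend of the ratios with transcript length and GC content subtracted, the 2 ratios were 0.28 and -0.37 for Il6, 0.20 and -0.25 for Il11, and 0.56 and -0.57 for Lif, in the order intermediate to soft and stiff to intermediate. The pattern rests on the single intermediate library and was chosen for description after the values had been seen.

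Comparison of the ends of the range gave a different order of the ligands. The stiff to soft log2 ratio was -0.32 for Il6 (interval -0.46 to -0.18), -0.10 for Il11 (interval -0.14 to -0.05) and 0.18 for Clcf1 (interval 0.08 to 0.27). After subtraction of the length and GC trend, the value for Il6, whose canonical transcript is 35.7% GC, was -0.10, that for Il11 was -0.06 and that for Clcf1 was 0.18. Scaling to total reads or to the upper quartile gave -0.15 for Il11.

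The receptor chains that carry the signal differed little between stiffness levels. Il6st, which encodes gp130, maps to chromosome 13, bases 112600604 to 112646620, plus strand (17 exons). It had 10733 normalized counts at 0.2 kPa, 11144 at 8 kPa and 12498 at 64 kPa. The stiff to soft log2 ratio was 0.22, with an interval from 0.18 to 0.26, a difference of 16.4%. After subtraction of the length and GC trend it was 0.004, and that of intermediate to soft turned from 0.05 to -0.11.

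Osmr, which encodes the signalling chain for oncostatin M, maps to chromosome 15, bases 6843053 to 6904450, minus strand (18 exons). It had 4932, 5005 and 5148 normalized counts, a log2 ratio of stiff to soft of 0.06 (interval 0.004 to 0.12). Lifr, which encodes the partner chain of gp130 for LIF, maps to the same chromosome, bases 7120095 to 7226970, plus strand (20 exons). It had 335, 350 and 343 normalized counts, and its stiff to soft ratio of 0.03 had an interval from -0.19 to 0.26. Neighbouring levels of Lifr did not differ beyond counting error in any comparison, and its stiff to soft ratio was below 0 under 2 of 3 other scalings. Removal of the length and GC trend gave stiff to soft ratios of 0.04 for Osmr and -0.16 for Lifr. That of Osmr was 0.006 with scaling to total reads and 0.004 with scaling to the upper quartile.

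Il6ra, the alpha receptor that binds IL-6, was the exception among the receptors. It maps to chromosome 3, bases 89771366 to 89820719, minus strand (10 exons). It had 48.2 normalized counts at 0.2 kPa, 75.4 at 8 kPa and 114 at 64 kPa, from 47, 80 and 111 reads. The level was higher at each step, with log2 ratios of 0.64 (interval 0.11 to 1.20) and 0.59 (interval 0.17 to 1.03), or 0.37 and 0.45 once the length and GC trend was removed. Between stiff and soft the ratio was 1.22, with an interval from 0.74 to 1.76, a fold of 2.36.

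Il6ra was the only one of the 10 members with a stiff to soft log2 ratio of at least 1, against 3.60% of all genes averaging at least 50. No member reached 1 between intermediate and soft (0.168% of all genes) or between stiff and intermediate (1.25%). At a log2 ratio of at least 0.5, the members called were Lif and Il6ra between intermediate and soft (4.6% of all genes), Il6, Lif and Il6ra between stiff and intermediate (8.84%) and Il6ra alone between stiff and soft (15.6%). After subtraction of the length and GC trend, the stiff to soft ratio of Il6ra was 0.82, below the threshold of 1. Of the calls at 0.5 in the single steps, those of Lif alone remained after it, with Il6ra at the values above and Il6 at -0.37. All 10 members passed the minimum mean of 50.

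**Figure D2:**
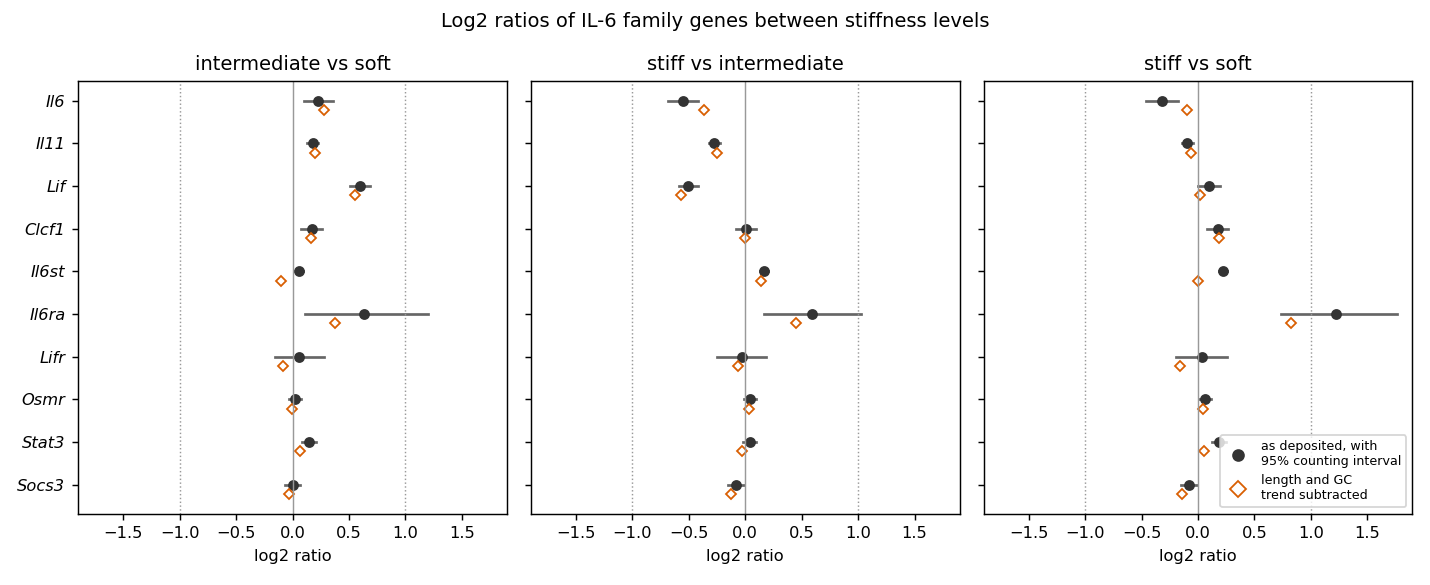
Log2 ratios (x axis) of the 10 members (y axis) in the 3 comparisons; dots are values as deposited with 95% counting intervals as lines, open diamonds are values with the length and GC trend subtracted, and dotted lines mark a log2 ratio of 1. Il6, Il11 and Lif lie right of 0 in the first panel and left of it in the second, and Il6ra, at 1.22, is the only member past 1 in the third.

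The macrophage markers moved in the same direction as Il6ra. Their summed level was 1.23 times the soft level in the intermediate and 2.15 times in the stiff library, and Il6ra was at 1.57 and 2.36 times its soft level. All 12 markers were higher in the stiff than in the soft library, with log2 ratios from 0.31 for Cd14 to 1.49 for C1qa and a median of 1.26. Lyz2 was the largest part of the sum, at 18362, 21482 and 39173 normalized counts. Per 1000 normalized counts of the summed markers, Il6ra stood at 1.53 at 0.2 kPa, 1.94 at 8 kPa and 1.68 at 64 kPa. Trac and Kdr were also higher in the stiff than in the soft library, with log2 ratios of 1.91 (interval 0.83 to 3.49) and 1.07 (interval 0.32 to 1.92) from the few reads given above, whereas Pecam1 and Cdh5 of the endothelial list had fewer reads there, 4 against 12 and 0 against 5. The part of RNA from macrophages or other cells in the Il6ra level was not tested. The reporter tdTomato also had 818, 1193 and 2668 normalized counts in the same order. Il6, Il11 and Lif were higher in the intermediate than in the soft library, as all 12 markers were, at 1.17, 1.13 and 1.52 times the soft level. From intermediate to stiff each of the 3 was lower while all 12 markers were higher.

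The effectors of the pathway were nearly level. Stat3 maps to chromosome 11, bases 100775924 to 100830450, minus strand (24 exons). It had 4324 normalized counts at 0.2 kPa, 4787 at 8 kPa and 4924 at 64 kPa. The stiff to soft log2 ratio of 0.19 (interval 0.13 to 0.25) was 0.05 with the length and GC trend subtracted. Socs3 maps to chromosome 11, bases 117856905 to 117860898, minus strand (2 exons). It had 3481, 3485 and 3291 normalized counts, with the soft and intermediate libraries equal within counting error. The stiff library was lower, with a stiff to soft log2 ratio of -0.08 (interval -0.15 to -0.01). That ratio was -0.14 with scaling to total reads or to the upper quartile and -0.15 with the length and GC trend subtracted. Socs3 did not show the high intermediate level of Il6, Il11 and Lif; its ratio of intermediate to soft was 0.002, with an interval from -0.07 to 0.07.

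Over the 10 members, the median log2 ratio was 0.16 between intermediate and soft, -0.01 between stiff and intermediate and 0.08 between stiff and soft. Over all 14291 genes with a mean of at least 10, the medians were 0.01, 0.006 and 0.0004 in the same order. The stiff to soft median of the members was 0.02 with scaling to total reads or to the upper quartile and 0.01 after removal of the length and GC trend. Counting intervals were clear of 0 for 7 of the 10 members between intermediate and soft (35.3% of genes averaging at least 50), 6 between stiff and intermediate (48.3%) and 8 between stiff and soft (57.1%).

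Levels were compared between genes as reads per kilobase of merged exons per 1000000 reads. On this scale Il11 was the highest member in all 3 libraries, at 136 at 0.2 kPa, 151 at 8 kPa and 122 at 64 kPa. Socs3 followed at 37.4, 37.0 and 34.0 and Il6st at 26.5, 27.1 and 29.6. Stat3, Clcf1, Osmr, Il6 and Lif lay between 11.5 and 21.3 in every library. Lif was the lowest of these 5 in the soft library, at 14.2, and the highest of them in the intermediate library, at 21.3. Lifr stood at 0.930, 0.958 and 0.915 and Il6ra at 0.208, 0.322 and 0.473, the lowest of the members. The transcripts of gp130 and the oncostatin M receptor were abundant on this scale, and those of the IL-6 alpha receptor were scarce. With the canonical transcript length in place of merged exons, Il11 remained first, Lifr ninth and Il6ra last in all 3 libraries; Il6st was above Socs3 in the stiff library, and Lif was eighth in each.

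**Figure D3:**
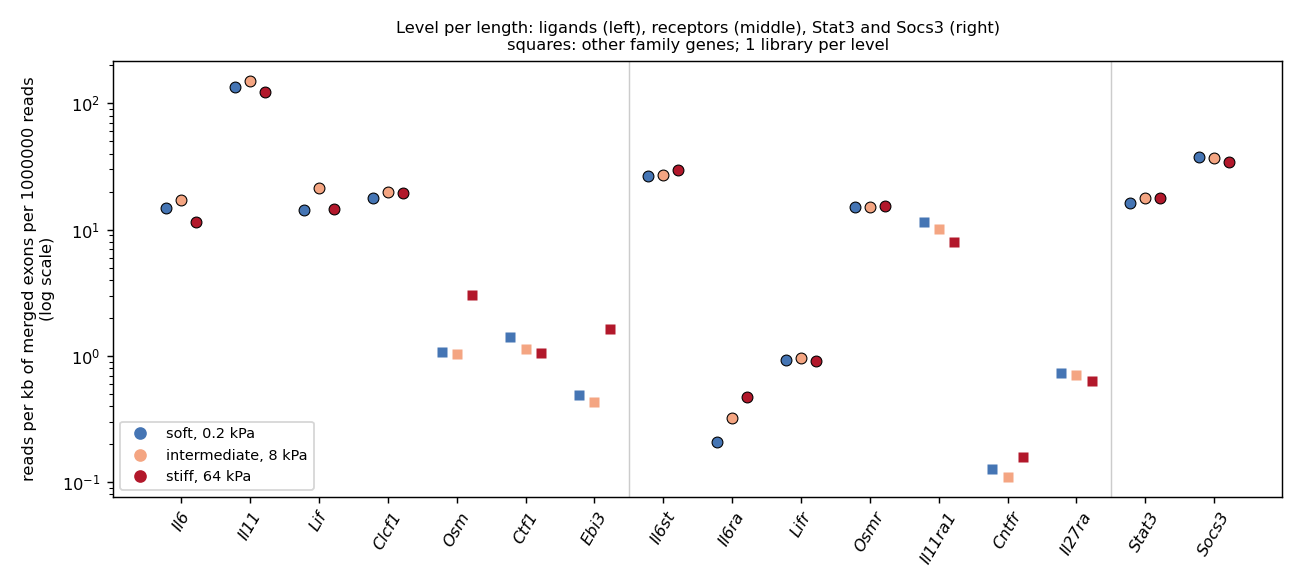
Reads per kilobase of merged exons per 1000000 reads (y axis, log scale) for ligands, receptors, Stat3 and Socs3 (x axis) in the 3 libraries; circles are members and squares other genes of the family. Il11, at 122 to 151, is the highest of the genes drawn, while Il6ra, at 0.208 to 0.473, and Cntfr are the lowest.

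Other genes of the pathway were taken from 5 lists of 54 genes in all. Among 7 other ligands and ligand subunits, Ctf2 and Il31 had no read, which allows up to 3.08 normalized counts at 0.2 kPa, 2.83 at 8 kPa and 3.08 at 64 kPa, and Cntf and Il27 had a single read each. Ctf1, which encodes cardiotrophin, had 90.2, 73.5 and 69.7 normalized counts, and its ratios had intervals that included 0.

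Osm, which encodes oncostatin M, a ligand made mainly by leukocytes, had 63.6 normalized counts at 0.2 kPa, 62.2 at 8 kPa and 189 at 64 kPa. The stiff library was the high one, and the stiff to soft log2 ratio was 1.55, with an interval from 1.15 to 2.01. Ebi3, a subunit of the heterodimeric cytokine IL-27, had 27.7, 24.5 and 96.4 normalized counts, with a ratio of 1.76 (interval 1.17 to 2.47). Between intermediate and soft the ratio was -0.03 for Osm (interval -0.55 to 0.49) and -0.17 for Ebi3 (interval -1.01 to 0.66), intervals that include both 0 and the median of the macrophage markers in that comparison, 0.39. Per 1000 normalized counts of the summed macrophage markers, Osm stood at 2.02, 1.60 and 2.78 and Ebi3 at 0.878, 0.630 and 1.42. The part of macrophage RNA in these levels was not tested.

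**Figure D4:**
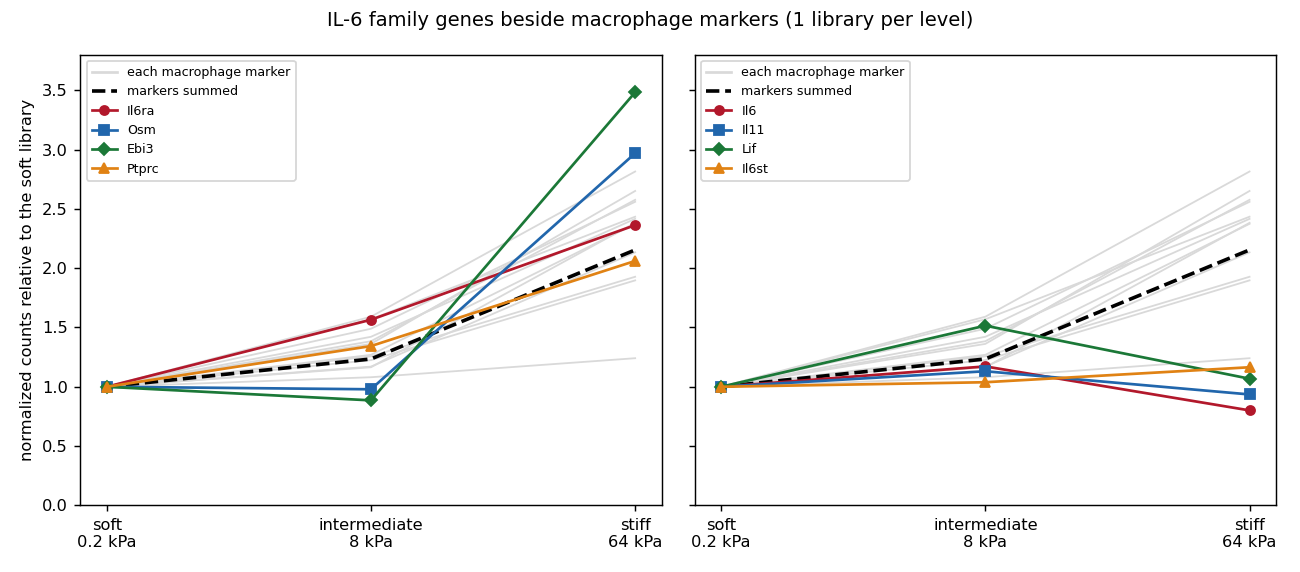
Normalized counts relative to the soft library (y axis, from 0) over the 3 stiffness levels (x axis); grey lines are the 12 macrophage markers, the dashed line is their sum, and coloured lines are genes of the IL-6 family and Ptprc. Il6ra and Ptprc run near the markers, Osm and Ebi3 are at 2.97 and 3.48 times the soft level in the stiff library, and Il6, Il11 and Lif fall below the markers at 64 kPa.

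Of the 5 other receptor genes, Il11ra1, the alpha receptor for IL-11, was the most abundant, with 2245 normalized counts at 0.2 kPa, 1994 at 8 kPa and 1622 at 64 kPa. It was lower at each step, and the stiff to soft log2 ratio was -0.47 (interval -0.56 to -0.37), or -0.50 with the length and GC trend subtracted. Near-identical copies of this gene exist in the mouse, and the listed copy Il11ra2 had no read, so the count of Il11ra1 is uncertain where reads could be split. The receptor for IL-11 was lowest in the stiff library, as Il11 was, but was not high in the intermediate library. Cntfr had 24, 23 and 31 reads, Il27ra had 77, 82 and 69, and Il31ra had 1, 0 and 0. No difference was detectable in these 3 at this depth.

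None of 12 kinases and signal carriers reached a log2 ratio of 0.5 in size in any comparison, where the shares of all genes were the 4.6%, 8.84% and 15.6% given above. Between stiff and soft their ratios ran from -0.17 to 0.32 around a median of 0.13. With the length and GC trend subtracted they ran from -0.35 to 0.16, and the median lay between -0.07 and -0.03. Jak1, the main kinase of gp130, had 6893, 8037 and 7882 normalized counts.

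Of the 10 brakes and receptor sheddases, Ptprc alone passed a log2 ratio of 1 between stiff and soft, at 1.04 (interval 0.83 to 1.26), against 3.60% of all genes. It encodes CD45, a phosphatase of leukocytes that acts on Janus kinases, and had 274, 368 and 564 normalized counts, 1.34 and 2.06 times the soft level in the intermediate and stiff library. Of the 3 listed relatives of Socs3, Socs1 and Socs2 were lower in the stiff library: Socs1 had 439, 416 and 325 normalized counts and Socs2 had 2932, 2947 and 2422. Their stiff to soft ratios were -0.43 (interval -0.65 to -0.22) and -0.28 (interval -0.35 to -0.20). The third, Cish, had 137, 176 and 156 normalized counts, and its ratio of 0.18 had an interval from -0.16 to 0.53. Adam10 and Adam17, proteases that release the IL-6 receptor from the cell surface, had stiff to soft ratios of 0.006 and 0.004, or 0.08 and 0.05 with the trend removed. That removal gave -0.63 for Socs1, -0.30 for Socs2 and 0.07 for Cish.

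The 20 known STAT3 targets did not move as a block. Between stiff and soft 5 reached a log2 ratio of 0.5, namely Fos at 0.80, Pim1 at 0.74, Myc at 0.68, Cebpb at 0.59 and Icam1 at 0.58. All 5 were higher in the stiff library, and 11.8% of all genes averaging at least 50 were higher by that size. Icam1 fell under that size, to 0.43, when the length and GC trend was removed, and the other 4 did not. All 12 macrophage markers were higher in the same comparison, with the median of 1.26 given above, and their part in these ratios was not tested. These genes have other inducers as well as STAT3. No target reached -0.5, and the median of the list was 0.19. The secreted products in the list did not share a direction: the ratio was -0.25 for Timp1, -0.24 for Lcn2, -0.24 for Hp, 0.10 for Saa3 (interval -0.06 to 0.27) and 0.26 for Lrg1 (interval 0.10 to 0.42). Removal of the trend gave -0.11, -0.11, -0.17, 0.25 and 0.21 in the same order.

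Steap4, which encodes a metalloreductase, was highest in the intermediate library like Il6 and Lif, with 195 normalized counts at 0.2 kPa, 284 at 8 kPa and 138 at 64 kPa. Its log2 ratio was 0.54 for intermediate to soft and -1.03 for stiff to intermediate. Junb, a subunit of AP-1, had 8040, 9150 and 6996 normalized counts and ratios of 0.19 and -0.39. Of the 46 listed genes with a mean of at least 50, the intermediate library was above both others with intervals clear of 0 in 3, namely Adam17, Junb and Steap4. Over all genes with that mean the share was the 4.03% given above for the same pattern.

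**Figure D5:**
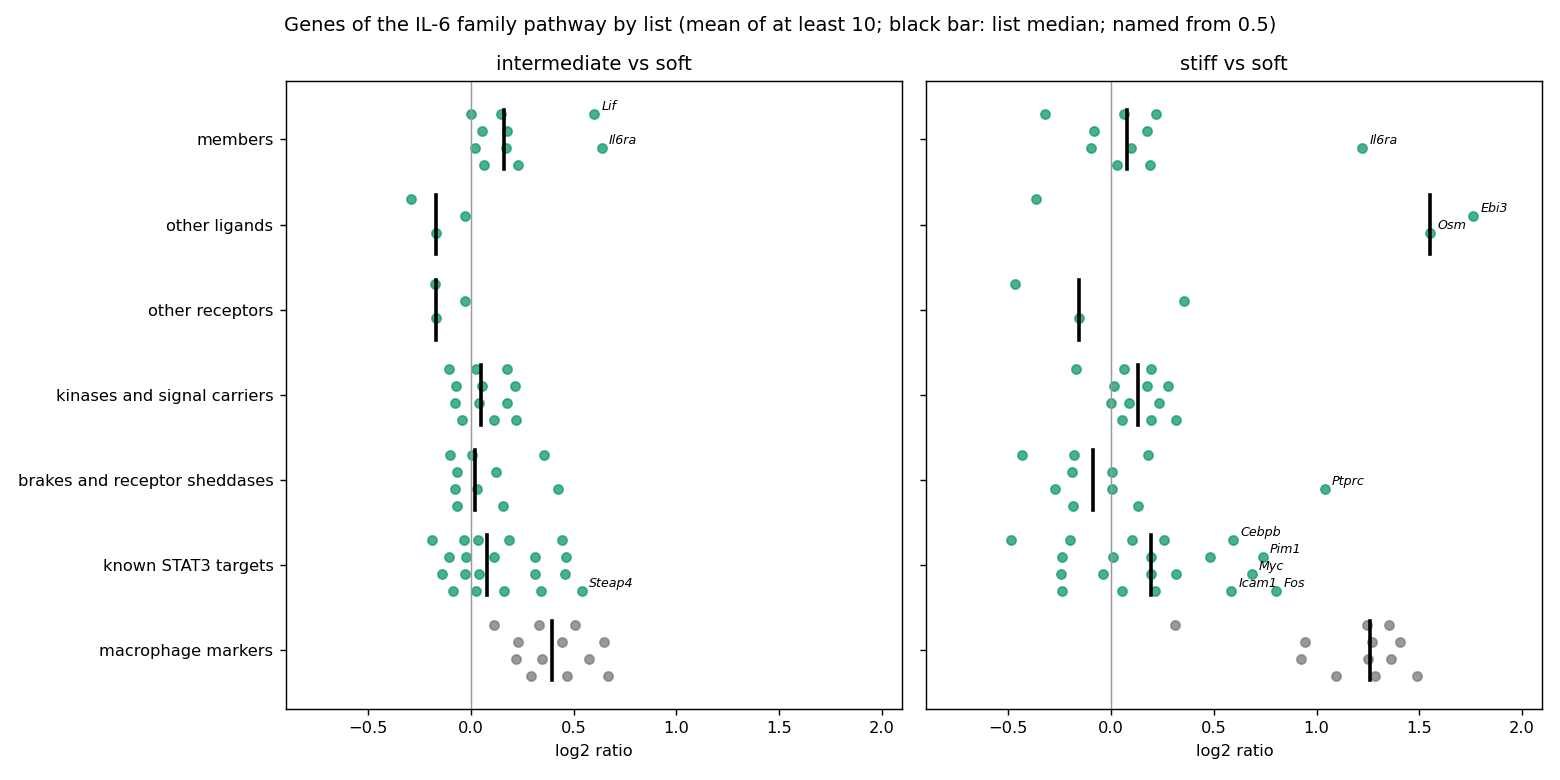
Log2 ratios (x axis) for intermediate against soft and stiff against soft, for the members, the 5 lists of other pathway genes and the macrophage markers (y axis), for genes with a mean of at least 10; black bars are list medians, vertical offsets within a list have no meaning, and names are given from a ratio of 0.5 in size, markers excepted. Osm, Ebi3, Il6ra and Ptprc lie in the range of the macrophage markers or above it in the stiff to soft panel.

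The genes nearest in pattern were sought among 10609 named genes with a mean of at least 100, by the Euclidean distance between the pairs of log2 ratios for the 2 steps, over 3 libraries. Nearest to Il6 were Mtf2, Thrb and Irgm1, at distances of 0.012, 0.023 and 0.023. Nearest to Il11 were Lyrm1, Scarf2 and Ifi35, at 0.007 each. Nearest to Il6st were Mif, Efl1 and Cdkn1a, at 0.004, 0.004 and 0.006. With 3 libraries many genes share any given pattern, and these distances are within counting error.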

How the data were processed

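RNA was sequenced from 3 libraries, 1 per stiffness level, prepared with a stranded poly(A) kit per the labels' protocols. The submitters' processing notes name bcl2fastq 2.20.0, STAR 2.7.9a, featureCounts, Subread 2.0.1 and DESeq2 1.34.0 and the build GRCm39; the annotation and the strand setting of the counting are not given in the sources used here. The deposited values are a signal: gene counts that the authors divided by 1 size factor per library, as the name DESeq2 in the files' names says. The 3 deposited files were identical, and columns were assigned by sample title. In each column 100% of values came out whole (tolerance 1e-06) when divided by the lowest value above 0, which recovers the reads; 1 read was worth 1.03 (soft), 0.943 (intermediate) and 1.03 (stiff) normalized counts. A count-based test needs replicates and was not made.

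Log2 ratios used the deposited values with a pseudocount of 1, which understates the change of low genes. Intervals were derived from the exact 95% Clopper-Pearson limits on how the reads of a gene divide between 2 libraries. No pseudocount entered them, and they reflect counting error only, as amplified reads are not independent molecules. For a count of 0, the upper limit is that of the exact 95% Poisson interval. Calls needed a log2 ratio of at least 1, or 0.5 where stated, and a mean of at least 50 normalized counts; medians used a mean of at least 10. Positions, merged exons and canonical transcripts are from GENCODE vM39 (GRCm39), matched by symbol. The length and GC trend was fitted locally, by robust linear regression on the 300 nearest of 13878 genes in log2 canonical length and GC content. Antisense genes overlap exons of Il6st, Il6ra, Lifr, Stat3 and Socs3 in that annotation, so reads there may be shared if strand was not used. A protein-coding gene on the same strand overlaps exons of Clcf1 over 311 bases, where strand cannot separate reads. That gene had 0 normalized counts in each library. Named genes were all members, the marker lists, list genes past a ratio of 0.5, the other ligand and receptor genes, and the 3 genes nearest in pattern to Il6, Il11 and Il6st. Jak1, Socs1, Socs2, Adam10, Adam17, Cish, Timp1, Lcn2, Hp, Saa3, Lrg1 and Junb were named after their values had been seen. The members and lists were chosen with earlier results of these data known. A few listed genes are not reported here and were left out of the counts and medians of the lists. Scripts were tested on simulated data and used matplotlib 3.10.9, scipy 1.17.1 and pandas 2.3.3 with numpy 2.4.6 under Python 3.11.15.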

Additional observations from a re-analysis of the deposited data

How the results depend on the processing

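With 1 library per level no replicate could be left out, and no paired analysis was possible because each level has a single library and the labels give no replicate number. The number of members past a log2 ratio of 1 between stiff and soft, 1 as reported, was 0 with the length and GC trend subtracted, 0 with a mean of at least 200 and 0 at a ratio of at least 2. Lowering the ratio to 0.5 gave 2 members for the step from soft to intermediate and 3 for that from intermediate to stiff, against 0 as reported in both. The medians of the members stayed inside the median of their counting intervals under the pseudocounts, scalings, minimum means and trend correction tried. Of the 30 ratios of single members, all 30 stayed inside their counting intervals with pseudocounts of 0.1 and 10 and with scaling by a trimmed mean of log ratios. There were 28 inside with scaling to total reads, 27 with scaling to the upper quartile and 23 with the trend subtracted. The ratio of intermediate to soft of Il6st reversed, to -0.11, with the trend subtracted; the cause was not tested. Of the 9 ratios whose intervals included 0, 6 changed sign under at least 1 scaling or with the trend subtracted (Clcf1, Lifr, Osmr, Socs3 and Stat3), and of the 21 others that of Il6st alone did. The 3 scalings shifted the median of all genes by -0.056 to 0.003. Depth limits Il6ra, at 47 to 111 reads, most among the members.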
